A study of Mus musculus with 18 samples.

Results

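The 37 genes described here encode the collagens, adhesive glycoproteins, elastic fibre proteins, proteoglycans and matrix enzymes of connective tissue, with a pair of fibroblast surface proteins. They were taken by symbol from a fixed list and matched through their Ensembl gene IDs to 37 of the 37620 gene IDs counted in each library. Each of the 37 had a single ID, and all 37 passed the filter on low counts. The list is named for fibroblasts, but the libraries are bulk tumour RNA in which the cell that made a transcript is not recorded, so the genes are called matrix genes below.

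The study compared gene expression in subcutaneous melanomas of C57BL/6 mice after injection of cells made from induced pluripotent stem cells (iPSC). MO4 cells, a single B16F10 melanoma line that expresses ovalbumin, were placed in both hindlimbs on day 0 at 100000 cells per side. Mice then received 1000000 iPSC-derived cells (named pMC in the labels, which do not spell the abbreviation out) or the same kind of cells with IFN-alpha in their name, beside the right tumour on days 5, 6 and 7. RNA was taken from both tumours on day 11. The 6 groups of 3 libraries were right and left tumours with no injected cells (control), right and left tumours of pMC mice, and right and left tumours of IFN-alpha-pMC mice. All groups share the strain, the MO4 tumours and the day of collection, and the left tumour of a treated mouse lay away from the injection. Neither the number of injected cells left on day 11 nor the species of the iPSC was given in the sources used here. The labels do not say that the libraries of a group came from separate mice, so that p-values reflect the scatter among the samples, which may be technical.

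Matrix falls into materials made by different cells. Fibrillar collagens, made mainly by fibroblasts, form the rope-like fibrils that give tissue its tensile strength, and lysyl oxidases crosslink them. Basement membranes are thin sheets built on type IV collagen and laminin under endothelium, epithelium and around muscle fibres, and vessels supply much of them in a tumour. Small leucine-rich proteoglycans such as decorin coat fibrils and set their spacing, and matricellular proteins such as tenascin-C and periostin are produced during wound repair and in tumour stroma.

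Promoter sequences are shown for a pair of fibrillar chains that were higher in IFN-alpha-pMC than in pMC tumours on the injected side (Col1a2 and Col3a1), a fibrillar chain that was not (Col5a1) and a basement-membrane chain (Col15a1). Each is the 250 bases before the transcript start, 5′ to 3′, from RefSeq on build GRCm38.p6, with capitals marking promoter motifs on either strand, which were the CCAAT box (spelled with these letters), the TATA box (letters TATAAA) and the GC box (letters GGGCGG).
Col1a2, chr6:4505368-4505617, plus strand: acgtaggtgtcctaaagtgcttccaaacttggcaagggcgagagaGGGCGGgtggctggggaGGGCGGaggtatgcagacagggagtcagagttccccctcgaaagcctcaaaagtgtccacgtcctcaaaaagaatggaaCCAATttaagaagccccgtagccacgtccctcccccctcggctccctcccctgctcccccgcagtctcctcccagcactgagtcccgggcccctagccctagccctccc
Col3a1, chr1:45311288-45311537, plus strand: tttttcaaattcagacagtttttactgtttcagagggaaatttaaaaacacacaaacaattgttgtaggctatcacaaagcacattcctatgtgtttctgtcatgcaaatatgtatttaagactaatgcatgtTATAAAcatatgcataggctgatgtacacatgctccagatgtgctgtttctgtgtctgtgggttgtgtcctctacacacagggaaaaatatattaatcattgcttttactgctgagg
Col5a1, chr2:27886175-27886424, plus strand: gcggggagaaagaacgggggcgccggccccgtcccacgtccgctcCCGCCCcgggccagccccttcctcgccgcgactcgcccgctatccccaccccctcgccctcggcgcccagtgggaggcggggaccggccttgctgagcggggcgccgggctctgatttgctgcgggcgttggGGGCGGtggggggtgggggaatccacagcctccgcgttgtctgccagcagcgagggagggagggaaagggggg
Col15a1, chr4:47207762-47208011, plus strand: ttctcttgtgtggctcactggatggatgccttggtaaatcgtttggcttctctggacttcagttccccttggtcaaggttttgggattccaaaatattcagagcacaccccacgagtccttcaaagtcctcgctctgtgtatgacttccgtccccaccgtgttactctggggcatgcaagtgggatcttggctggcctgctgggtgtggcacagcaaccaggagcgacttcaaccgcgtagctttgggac
The Col1a2 stretch held 1 CCAAT box and 2 GC boxes, the Col3a1 stretch 1 TATA box, the Col5a1 stretch 2 GC boxes and the Col15a1 stretch none of these letters.

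RefSeq windows were at hand for 24 of the 37 genes, 29 windows in all. Each motif was searched on both strands in the 250 bases before the start, here and over all windows. The GC box stood in 15 of the 29 windows against 32.7% of all 32851 windows, the CCAAT box in 6 against 33.8% and the TATA box in 6 against 12.4%. The interferon-stimulated response element, searched as GAAA repeated after any 2 bases, stood in 1 of the 29, that of Fbn1, against 2.98% of all windows. Such matches describe letters and were not tested for binding. Col4a1 (minus strand) starts at base 11312826 of chromosome 8 and Col4a2 (plus strand) at base 11312805, 21 bases apart. The first bases of these transcripts therefore overlap on opposite strands. Their windows are not shown because each overlaps the other's transcript.

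Library totals were 14.35 to 23.43 in units of 1000000 counts, so that 3 counts, the limit that a count of 0 allows, were 0.128 to 0.209 CPM (counts per 1000000 after trimmed-mean scaling). Melanocyte markers summed to 30487 to 45693 CPM in every library and keratinocyte markers to at most 1.07. Relative to the mean of all libraries, log2 CPM followed transcript length by a Spearman rho of -0.49 in right control 3 against 0.32 and 0.54 in the other right controls. Right IFN-alpha-pMC 3 had a rho of 0.37, where libraries 1 and 2 of its group had -0.29 and -0.41, and left IFN-alpha-pMC 1 had -0.45, where libraries 2 and 3 had -0.18 and -0.07. These 3 libraries stand apart from their groups, and the results below are also given without them. They were chosen after seeing the data. Without them right control and right IFN-alpha-pMC keep only libraries 1 and 2, and left IFN-alpha-pMC only libraries 2 and 3. Read pairs in no feature were 4.04 to 6.12% in the IFN-alpha-pMC libraries and 6.87 to 12.21% in the others.

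Part of the matrix genes were higher in IFN-alpha-pMC tumours, with more calls against pMC than against control and more calls on the injected than on the distant side. Whether the sides differ is tested further on. Against right controls 5 of the 37 rose and none fell, the proteoglycans Podnl1 and Dcn, the receptor Pdgfra, the crosslinking enzyme Loxl2 and the glycoprotein Tnc. Over all 14849 genes tested 8.78% were called higher and 2.01% lower. Against right pMC tumours 15 of the 37 rose and none fell, beside 8.88% higher and 1.21% lower over all genes. Called means an adjusted p under 0.05 by the quasi-likelihood test of edgeR with Benjamini-Hochberg adjustment over all genes tested, the source of every adjusted p below unless DESeq2 is named, and log2 fold changes are given ± SE. Differences in bulk RNA cannot tell more cells of a type from more RNA per cell. The median fold change of the 37 genes was 0.65 against control and 1.37 against pMC on the log2 scale, beside -0.03 and -0.04 over all genes, and 27 and 32 of the 37 were above 0. Skeletal muscle RNA was also higher in the IFN-alpha-pMC libraries, and with a muscle score as a covariate the medians were -0.07 and 0.53, beside -0.03 and -0.04 over all genes. In that fit 5 of the 26 calls on members over all comparisons remained. The score was 1.27 to 3.83 in IFN-alpha-pMC libraries and -4.22 to 2.02 in the others. It thus largely follows treatment, and this fit cannot tell muscle RNA and treatment apart.

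These counts moved with single libraries. Against right controls 3 genes were called without control 1, 2 without control 2, 8 without control 3 (6 higher, 2 lower) and 3 without IFN-alpha-pMC 2. Against right pMC tumours 3 were called without pMC 1, 3 without pMC 2 and 8 without IFN-alpha-pMC 2. The share of all genes called in these fits is not given here. These counts alone therefore do not set the matrix genes apart from other genes. Without the 3 libraries that stand apart, 7 rose and 7 fell against right controls, where 28.4% of all genes were called higher and 26.1% lower. In the same setting 11 rose and 3 fell against right pMC tumours, beside 12.5% and 16.1% of all genes. Podnl1 and Dcn were called against both right groups in the full set, without the 3 libraries and without any one library. Fitted on the compared groups alone Podnl1 was the 1 member still called against right control, and the adjusted p of Dcn was 0.13.

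On the distant side 3 of the 37 rose against left controls, Dcn, Lum and Fap, and none fell, where 4.05% of all genes were called higher and 2.6% lower. Only Dcn rose against left pMC tumours, where 2.71% were called higher and 1.14% lower. Each of these 4 calls was lost when any one of the 6 libraries compared was left out, and with a length and GC offset (adjusted p from 0.0929 to 0.133). Without the 3 libraries that stand apart 5 rose and 3 fell against left controls (13% and 15.8% of all genes), and 4 rose and 3 fell against left pMC tumours (12.7% and 14.9%). The median of the 37 was 0.33 against control and 0.42 against pMC, beside 0.07 over all genes in both. With the muscle score as a covariate these medians were -0.32 and -0.34, beside 0.07 and 0.06 over all genes. Fitted on the compared groups alone, where 36 members were tested, 5 rose and 4 fell against left control (7.25% and 14.8% of all genes), and 7 rose and 2 fell against left pMC (6.73% and 11.2%). All the members that fell in those fits are basement-membrane collagens.

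**Figure D1:**
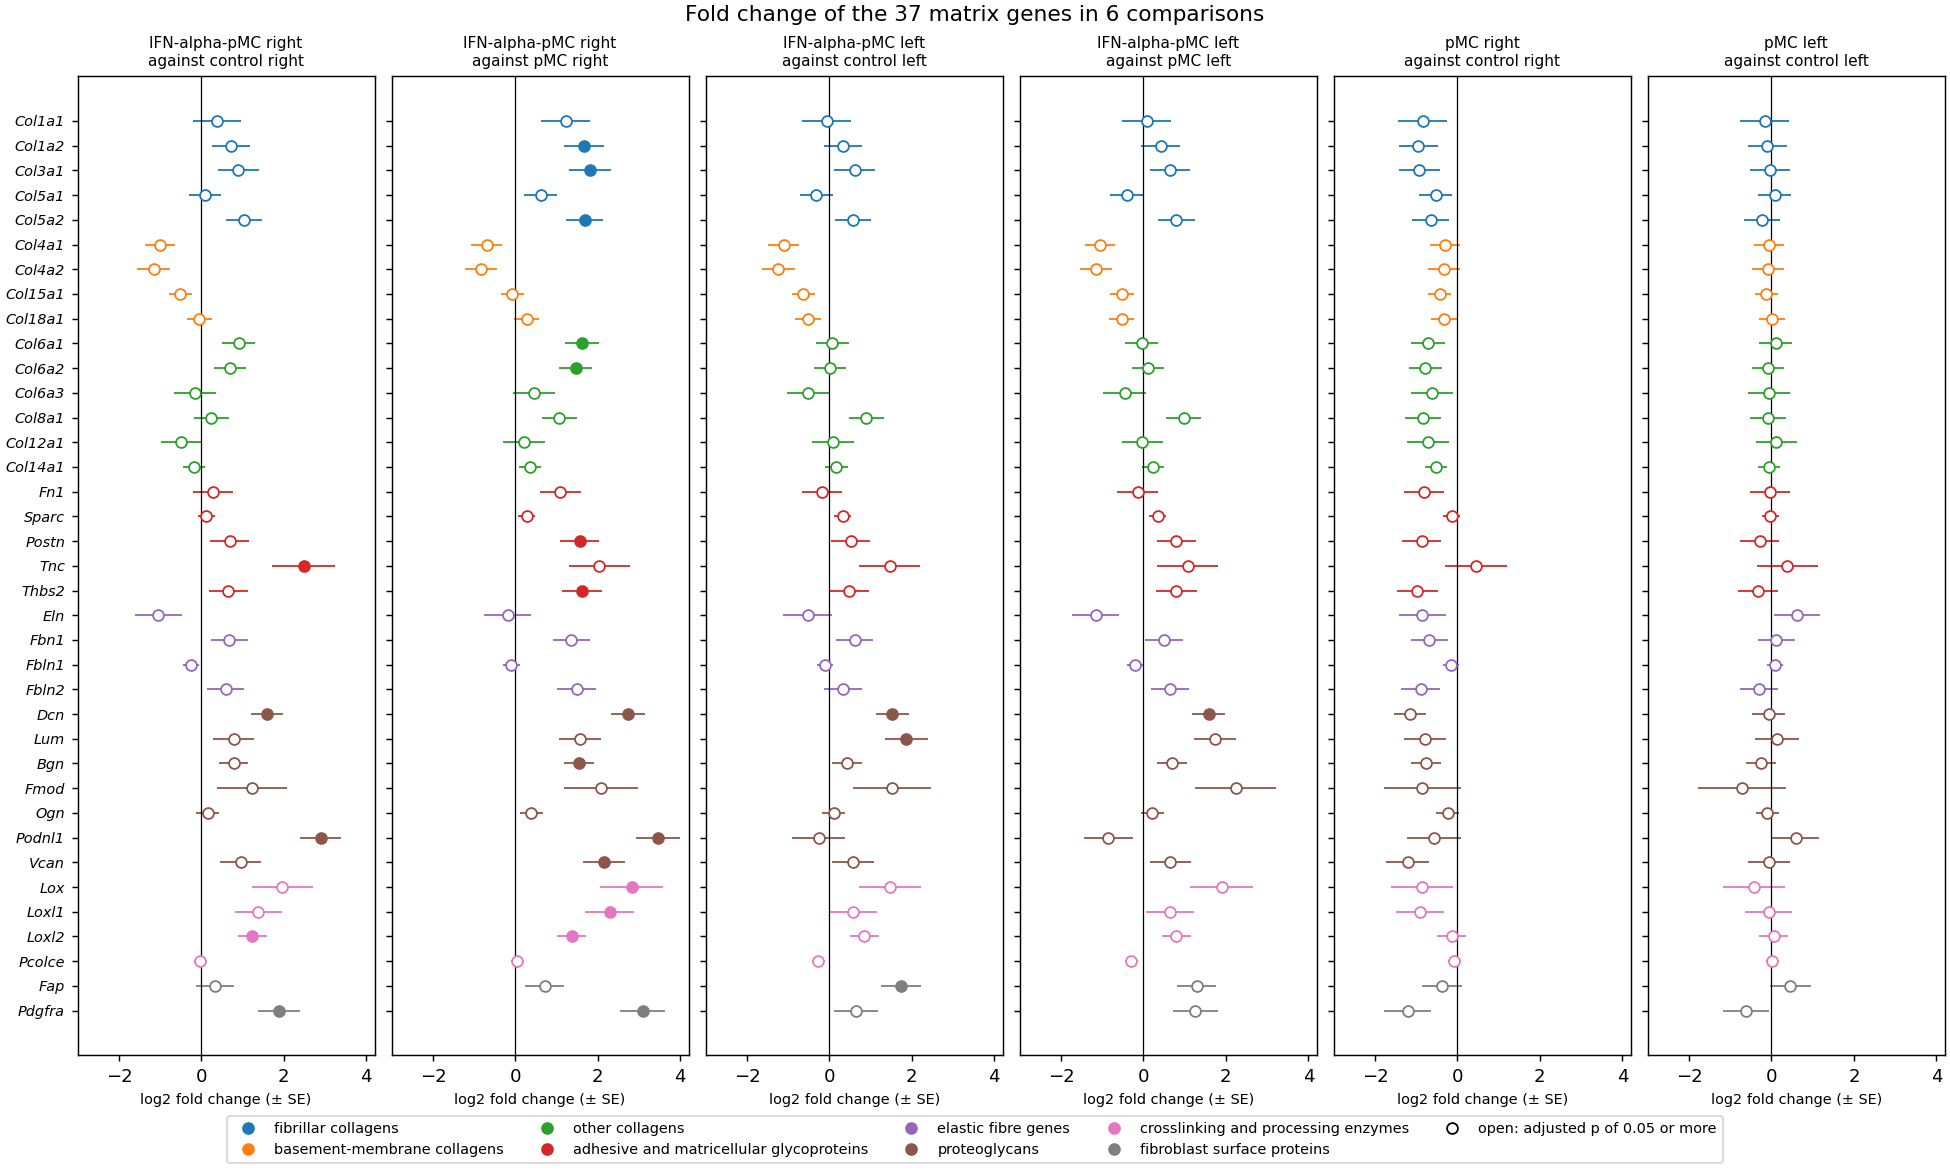
Log2 fold change of each of the 37 matrix genes (rows) in 6 comparisons (panels). Bars are ± SE and filled points have an adjusted p under 0.05. Of the 37 genes, 15 are filled in right IFN-alpha-pMC against right pMC tumours and 3 in left IFN-alpha-pMC against left control tumours.

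In control tumours the matrix genes differed widely in level. Per length of transcript (2.3 to 12.43 kb) right controls held most Sparc, at 449 CPM per kb, followed by Pcolce at 85.9 and Fbln1 at 51.2. Sparc binds collagen and calcium, Pcolce speeds the trimming of procollagen ends and Fbln1 bridges elastic fibres and basement membranes. Next came Col4a1 at 24.9, Col3a1 at 24.3, Bgn at 20.1, Col4a2 at 17.7, Col1a1 at 12.9 and Col1a2 at 12.8, whose libraries overlapped. Podnl1 was lowest at 0.0834, below Pdgfra at 0.183 and Fmod at 0.262. Left controls put the same 3 genes on top, Sparc at 395, Pcolce at 91.8 and Fbln1 at 49.1 CPM per kb, and Podnl1 at the bottom at 0.0867. None of the top 3 was called in any of the 12 comparisons with all 18 libraries. Sparc ranged from 753 to 1372 CPM and Pcolce from 152 to 259 CPM over the 18 libraries. Sparc was called higher against right control, left control and left pMC when the 3 libraries that stand apart were left out, by 0.47 ± 0.15, 0.43 ± 0.13 and 0.46 ± 0.13.

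**Figure D2:**
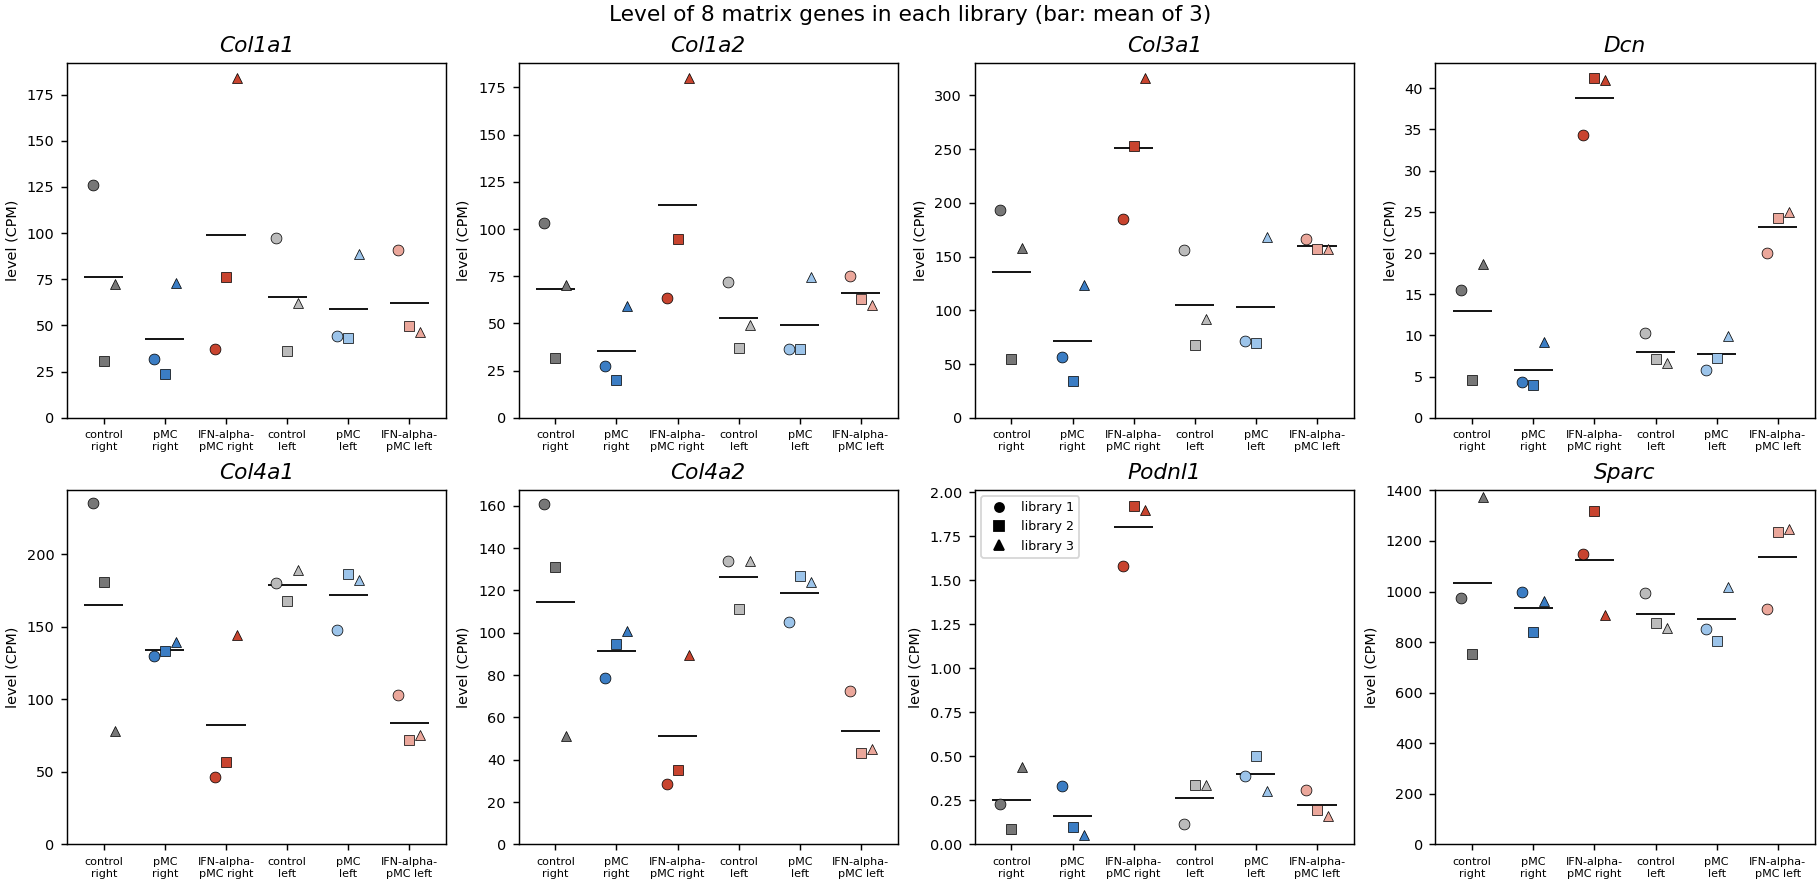
Level (CPM) of 8 matrix genes in each of the 18 libraries, by group, with a bar at the mean of 3. The 3 right IFN-alpha-pMC libraries are above the other 15 for Dcn and Podnl1, and Sparc overlaps between groups.

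The fibrillar collagens are the main fibril formers. On the injected side all 5 chains had positive fold changes against control, with a median of 0.72 and none called, and 3 of 5 rose against pMC with a median of 1.67. Col1a2, the less abundant chain of the type I molecule, read 103, 31.6 and 70.3 CPM in controls, 27.4, 19.8 and 59 with pMC and 63.2, 94.8 and 179.9 with IFN-alpha-pMC. Its IFN-alpha-pMC libraries lay above all pMC libraries and overlapped the controls, with a change of 1.67 ± 0.48 (adjusted p = 0.0343) against pMC and 0.72 ± 0.47 (adjusted p = 0.391) against control. On the distant side Col1a2 read 71.8, 36.8 and 49.3 CPM in controls, 36.6, 36.3 and 74.7 with pMC and 75, 63.1 and 59.8 with IFN-alpha-pMC, with all 3 groups overlapping. Col3a1, the chain of type III collagen found in extensible tissue, read 193, 55.1 and 158 CPM in controls, 56.7, 34.6 and 124 with pMC and 185, 253 and 316 with IFN-alpha-pMC on the right. It too was above every pMC library and overlapped the controls, with 1.81 ± 0.50 (adjusted p = 0.0265) against pMC and 0.90 ± 0.49 (adjusted p = 0.283) against control. Left tumours held Col3a1 at 156, 67.7 and 91.6 CPM in controls, 71.4, 69.4 and 168 with pMC and 166, 157 and 157 with IFN-alpha-pMC, above every left control but overlapping pMC, and the change against left control was 0.61 ± 0.49 (adjusted p = 0.352). Col5a2, a chain of the type V collagen that starts fibrils, read 23.6, 7.42 and 16.7 CPM in controls, 9.29, 6.81 and 14.3 with pMC and 23.8, 24.9 and 48.7 with IFN-alpha-pMC on the right. Right IFN-alpha-pMC libraries were above all others of that side for Col5a2, by 1.68 ± 0.45 (adjusted p = 0.0218) against pMC and 1.03 ± 0.44 (adjusted p = 0.155) against control. In left tumours Col5a2 read 21.3, 8.86 and 12 CPM in controls, 9.24, 7.84 and 19.1 with pMC and 23.6, 20.5 and 19 with IFN-alpha-pMC, overlapping between groups.

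Col1a1 and Col5a1, the partner chains of Col1a2 and Col5a2, did not pass the test in any comparison. Col1a1 read 126, 30.6 and 72.4 CPM in controls, 31.7, 23.5 and 73 with pMC and 37.1, 76.3 and 184 with IFN-alpha-pMC on the right. The IFN-alpha-pMC libraries overlapped both other groups, with right IFN-alpha-pMC 3 highest of all 18 libraries. The change of Col1a1 was 0.38 ± 0.59 (adjusted p = 0.776) against control, -0.52 ± 0.61 without the 3 libraries that stand apart, and 1.22 ± 0.60 (adjusted p = 0.272) against pMC. Left tumours held Col1a1 at 97.5, 36.4 and 62.4 CPM in controls, 44.2, 43.3 and 88.7 with pMC and 90.8, 49.7 and 46.7 with IFN-alpha-pMC, again with overlap. Col5a1 ranged from 11.0 to 38.2 CPM over all libraries, with a change of 0.61 ± 0.40 (adjusted p = 0.454) against right pMC. The 3 fibrillar calls were lost without right pMC 1, right pMC 2 or right IFN-alpha-pMC 3, and those of Col1a2 and Col3a1 also without right IFN-alpha-pMC 2. The highest adjusted p without a single library was 0.16 for Col1a2, 0.125 for Col3a1 and 0.113 for Col5a2, each without right pMC 2. Of the 5 chains Col3a1 alone was called against pMC without the 3 libraries that stand apart, at 1.57 ± 0.53 (adjusted p = 0.0363).

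Basement-membrane collagens went the other way, below 0 in 4 of 4 against right control, 3 of 4 against right pMC and 4 of 4 in both left comparisons. With all libraries in 1 model edgeR called none of the 4. DESeq2 called Col4a2 lower against right control (adjusted p = 0.0377), left control (adjusted p = 0.0242) and left pMC (adjusted p = 0.0457) and Col4a1 lower against left control (adjusted p = 0.0314), where it called 3.54%, 10.1% and 5.21% of all genes lower in those comparisons in that order. Col4a1, which with Col4a2 forms the network of most basement membranes, read 235, 181 and 78.3 CPM in controls, 129.6, 133 and 139.7 with pMC and 46.6, 56.9 and 144 with IFN-alpha-pMC on the right. Right IFN-alpha-pMC 3 was far above its group and right control 3 far below its own, and the groups overlapped, with -1.0 ± 0.37 (adjusted p = 0.102) against control and -0.70 ± 0.37 (adjusted p = 0.321) against pMC. In left tumours Col4a1 read 180.1, 168 and 189 CPM in controls, 148, 186 and 182 with pMC and 103, 71.8 and 75.2 with IFN-alpha-pMC, every IFN-alpha-pMC library below every other, with -1.11 ± 0.37 (adjusted p = 0.0655) against control and -1.05 ± 0.37 (adjusted p = 0.089) against pMC. Col4a2 followed its partner, with 161, 131 and 51.2 CPM in controls, 78.8, 94.8 and 101 with pMC and 28.7, 35.2 and 89.5 with IFN-alpha-pMC on the right. On the left Col4a2 read 134, 111 and 134 CPM in controls, 105, 127 and 124 with pMC and 72.6, 43.4 and 45 with IFN-alpha-pMC, also without overlap. Its changes were -1.16 ± 0.39 (adjusted p = 0.072) and -0.84 ± 0.39 (adjusted p = 0.241) against right control and pMC, and -1.24 ± 0.40 (adjusted p = 0.0606) and -1.15 ± 0.39 (adjusted p = 0.083) against left control and pMC. Col15a1 and Col18a1, collagens of the basement-membrane zone, ranged from 13.4 to 36.5 and from 10.6 to 28.2 CPM over all libraries. In left tumours their IFN-alpha-pMC libraries were also below all control and pMC libraries.

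The calls on these chains depended on the tool, the model, the filter and the libraries kept. Fitted on the compared groups alone all 4 chains fell against left control, Col4a1 by -1.16 ± 0.18 (adjusted p = 0.00652), Col4a2 by -1.29 ± 0.22 (adjusted p = 0.00822), Col15a1 by -0.69 ± 0.14 (adjusted p = 0.0134) and Col18a1 by -0.57 ± 0.16 (adjusted p = 0.0355). In the same kind of fit Col4a1 and Col4a2 fell against left pMC, by -1.06 ± 0.19 (adjusted p = 0.00906) and -1.16 ± 0.22 (adjusted p = 0.0108). With no filter on low counts Col4a2 fell against right control (adjusted p = 0.0374), and Col4a1 and Col4a2 fell against left control (adjusted p = 0.0459 and 0.0365), where 1.29% and 2.36% of all genes were called lower. Without right control 3 both Col4a1 and Col4a2 fell against control, by -1.33 (adjusted p = 0.00833) and -1.51 (adjusted p = 0.00557). Without right IFN-alpha-pMC 3 the changes were -1.76 (adjusted p = 0.00189) and -1.94 (adjusted p = 0.00217). Without all 3 libraries Col4a1 changed by -2.06 ± 0.15 against right control and -1.43 ± 0.13 against right pMC, and by -1.30 ± 0.13 and -1.24 ± 0.13 on the left, with adjusted p from 7.17e-08 to 1.8e-05. Col15a1 was then called lower in the same 4 comparisons. That fit, on libraries chosen after seeing the data, also called many other genes lower. The shares were 26.1%, 16.1%, 15.8% and 14.9% of all genes against right control, right pMC, left control and left pMC. Its fold changes over all genes followed transcript length by a Spearman rho of -0.45, -0.28, -0.27 and -0.13 in that order. With all libraries the rho was -0.21, -0.07, -0.42 and -0.34, so the length trend was stronger on the right without the 3 libraries. Its part in these changes was not tested. With all libraries and a length and GC offset both type IV chains also fell on the right, Col4a1 by -0.71 ± 0.21 against control and -0.77 ± 0.21 against pMC, where 13.1% and 14.1% of all genes were called lower. Endothelial markers (15 genes) summed to 255 to 425 CPM in right IFN-alpha-pMC, 322 to 361 in right pMC and 256 to 522 in right control tumours, and to 268 to 306 with IFN-alpha-pMC, 395 to 439 in controls and 379 to 429.9 with pMC on the left. Of the 15, Vwf and Cdh5 fell against right control, by -0.97 ± 0.30 (adjusted p = 0.0475) and -1.09 ± 0.33 (adjusted p = 0.0425), and edgeR called none in the other 3 comparisons. DESeq2 called 3 of the 15 lower against right control, 4 against left control and none against pMC on either side. At an unadjusted p under 0.05, 5 were lower against right control, 1 against right pMC, 8 against left control and 5 against left pMC. Their medians were -0.39, -0.01, -0.70 and -0.51 in that order. The share of all genes lower at the unadjusted threshold is not given here. All 15 had counts in every group, and their part in the basement-membrane values was not tested. Mural cell markers summed to 136 to 184 CPM over all libraries, and 1 of the 9 tested, Kcnj8, fell against right control, by -1.05 ± 0.31 (adjusted p = 0.0371).

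Set against each other within a library, the 5 fibrillar and 4 basement-membrane collagens of the list separated the IFN-alpha-pMC tumours from most others. This does not hold for fibrillar collagens as a class. Other fibrillar and fibril-associated collagens, left out here, had medians on the side of the basement-membrane chains, as given below. The mean log2 CPM of the 5 fibrillar chains minus that of the 4 basement-membrane chains was 0.93, 1.17 and 1.02 in right IFN-alpha-pMC and 0.59, 0.46 and 0.39 in left IFN-alpha-pMC libraries. It was -0.17, -1.33 and 0.63 in right controls, -0.86, -1.36 and -0.17 in right pMC, -0.18, -1.07 and -0.78 in left controls and -0.80, -1.11 and -0.22 in left pMC libraries. Every right IFN-alpha-pMC library was above every library of the other treatments, and right control 3, at 0.63, was the 1 library without IFN-alpha-pMC above the left IFN-alpha-pMC tumours. The means were 1.04 ± 0.12 (SD, n = 3) and 0.48 ± 0.10 (SD, n = 3) in right and left IFN-alpha-pMC tumours. In controls they were -0.29 ± 0.98 (SD, n = 3) and -0.68 ± 0.45 (SD, n = 3), and in pMC tumours -0.80 ± 0.60 (SD, n = 3) and -0.71 ± 0.45 (SD, n = 3). Leaving out the 3 libraries that stand apart, all IFN-alpha-pMC libraries lay between 0.39 and 1.17 and all others between -1.36 and -0.17. That full separation follows from leaving out right control 3, at 0.63, and the 3 libraries were chosen after seeing the data. Being a score over genes chosen with these data known, the difference is described and carries no p.

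**Figure D3:**
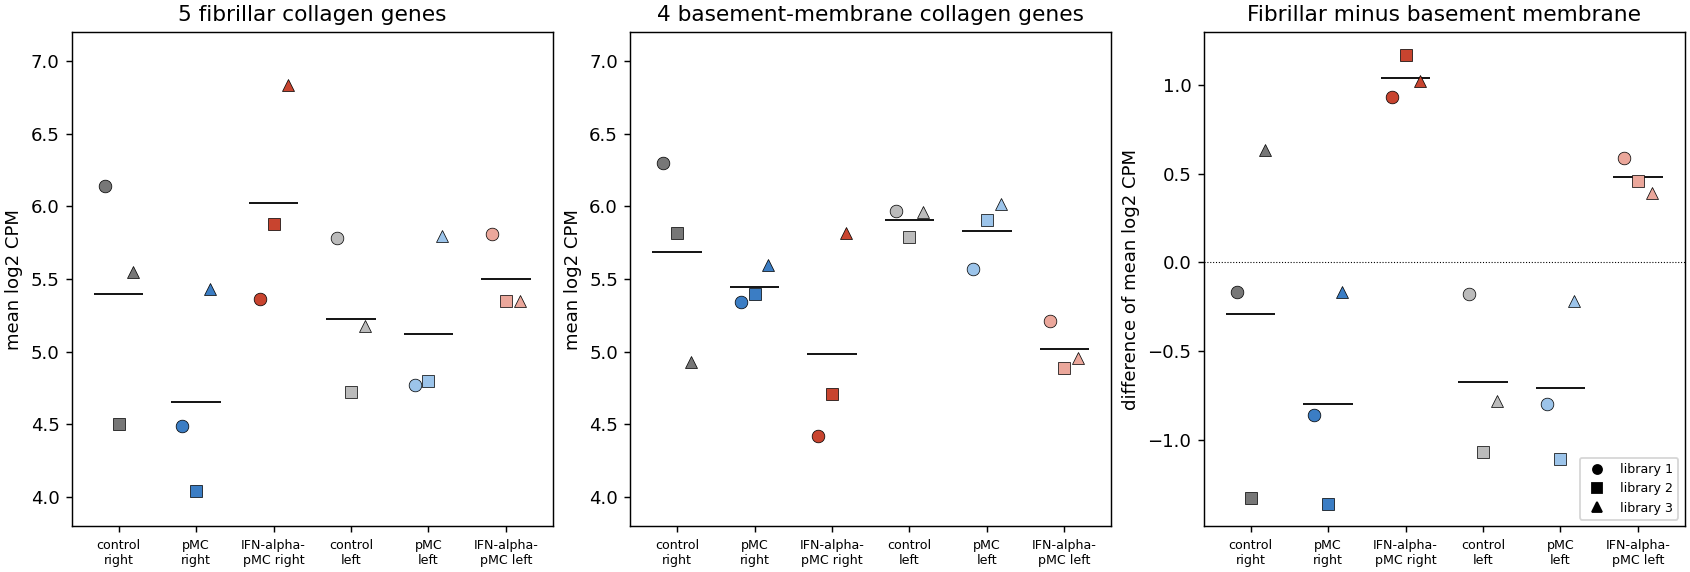
Mean log2 CPM of 5 fibrillar collagens, of 4 basement-membrane collagens and their difference (y axes, log2) in each library by group. The difference is 0.93 to 1.17 in right and 0.39 to 0.59 in left IFN-alpha-pMC libraries, and -1.36 to 0.63 in the other 12.

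The ratio between partner chains separated the IFN-alpha-pMC libraries from all others for type V collagen and overlapped for the other pairs, and no test was run on the ratios. Type V collagen had a Col5a1 to Col5a2 ratio of CPM per kb of 0.37, 0.489 and 0.618 in right IFN-alpha-pMC and 0.686, 0.422 and 0.561 in left IFN-alpha-pMC libraries, all below the 0.805 to 1.98 of the other 12. For type VI collagen, the Col6a3 to Col6a1 ratio was 0.123, 0.0799 and 0.228 in right and 0.295, 0.166 and 0.208 in left IFN-alpha-pMC libraries, against 0.257 to 0.408 in the others, where right control 3 was lowest. Left IFN-alpha-pMC 1, at 0.295, lay within the range of those others. Type I collagen had a Col1a1 to Col1a2 ratio of 0.529, 0.726 and 0.922 in right IFN-alpha-pMC libraries, overlapping the 0.874 to 1.23 of the control and pMC libraries. The ratios of Col6a1 to Col6a2 (0.713 to 1.13) and Col4a1 to Col4a2 (1.31 to 1.63) also overlapped between groups. The first chain of the pair, with the lower mean ratio in IFN-alpha-pMC tumours, is the longer transcript in types V (8.41 kb for Col5a1, 6.62 kb for Col5a2) and VI (10.11 kb for Col6a3, 4.1 kb for Col6a1) and, slightly, in type I (5.93 and 5.35 kb). Over all genes the fold change fell with transcript length by a Spearman rho of -0.21 against right control, -0.07 against right pMC, -0.42 against left control and -0.34 against left pMC, and over the 37 genes the rho was -0.11, -0.02, -0.15 and -0.15. Its part in the ratios was not tested.

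**Figure D4:**
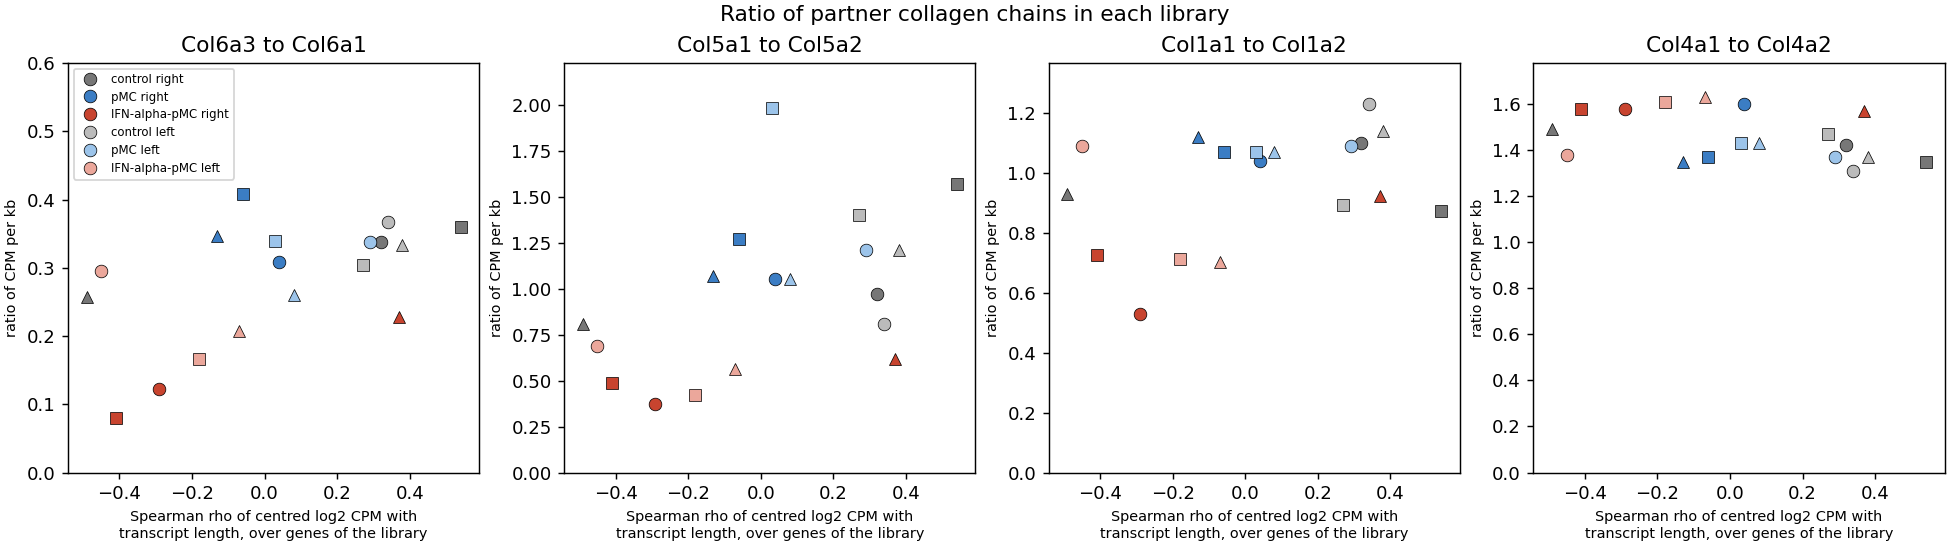
Ratio of CPM per kb of partner collagen chains (y axes) against the Spearman rho of the library's centred log2 CPM with transcript length (x axes), 1 point per library, coloured by group. The Col5a1 to Col5a2 ratio is 0.37 to 0.686 in IFN-alpha-pMC libraries and 0.805 to 1.98 in the others.

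Among the 6 other collagens 2 rose against right pMC, the type VI chains Col6a1 and Col6a2, and none against control or on the left. Type VI collagen forms beaded filaments around cells and is made by fibroblasts and around muscle. Col6a1 read 38.1, 15.2 and 17 CPM in controls, 13.6, 9.02 and 20.4 with pMC and 23.7, 48.9 and 59.6 with IFN-alpha-pMC on the right. It exceeded every pMC library and overlapped controls, with 1.62 ± 0.41 (adjusted p = 0.0159) against pMC and 0.91 ± 0.40 (adjusted p = 0.172) against control. Left libraries held Col6a1 at 27.7, 18.4 and 20.2 CPM in controls, 16.5, 18.6 and 36.5 with pMC and 25.6, 22.8 and 21.2 with IFN-alpha-pMC, overlapping between groups. Col6a2 read 45.4, 17.5 and 28.6 CPM in controls, 14.5, 10.7 and 28.3 with pMC and 30.1, 52 and 66 with IFN-alpha-pMC on the right, again above all pMC libraries only, with 1.47 ± 0.40 (adjusted p = 0.0248) against pMC and 0.70 ± 0.39 (adjusted p = 0.303) against control. In left tumours Col6a2 was 34.4, 23 and 28.6 CPM in controls, 17.8, 22.5 and 40.4 with pMC and 29.5, 30.3 and 27.6 with IFN-alpha-pMC, with overlap. The third chain, Col6a3, read 7.21 to 33.4 CPM over all libraries and changed by 0.46 ± 0.51 (adjusted p = 0.695) against right pMC. Col8a1, a network collagen of vessel walls, was above every pMC library on the right and above every control and pMC library on the left, with 0.90 ± 0.43 (adjusted p = 0.139) against left control. Col12a1 and Col14a1, which sit on fibril surfaces, overlapped controls on both sides and ranged from 2.73 to 11.1 and from 4.17 to 9.92 CPM. Both type VI calls were lost without right pMC 1, pMC 2, IFN-alpha-pMC 2 or IFN-alpha-pMC 3, up to an adjusted p of 0.0908 for Col6a1 and 0.127 for Col6a2.

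Of the 5 adhesive and matricellular glycoproteins Tnc rose against right control, and Thbs2 and Postn rose against right pMC. Tnc encodes tenascin-C, which appears at wound edges and in tumour stroma and is also made in tendon. It read 4.89, 2.01 and 9.94 CPM in controls, 2.1, 2.73 and 17.9 with pMC and 21.9, 23.3 and 47.7 with IFN-alpha-pMC on the right, where all IFN-alpha-pMC libraries were highest. The change was 2.48 ± 0.76 (adjusted p = 0.0448) against control and 2.03 ± 0.74 (adjusted p = 0.105) against pMC. In left tumours Tnc read 10.3, 6.04 and 5.41 CPM in controls, 3.52, 5.9 and 19 with pMC and 26.1, 16.2 and 17.8 with IFN-alpha-pMC, above all controls and overlapping pMC, with 1.46 ± 0.74 (adjusted p = 0.16) against control. Its right call was lost without any one of 5 of the 6 libraries compared, up to an adjusted p of 0.174 without control 2. Thbs2, thrombospondin 2, which restrains vessel growth, read 5.58, 1.83 and 8.13 CPM in controls, 2.32, 1.39 and 4.18 with pMC and 7.16, 5.81 and 11.1 with IFN-alpha-pMC on the right, above pMC only, by 1.62 ± 0.49 (adjusted p = 0.0459). Left libraries held Thbs2 at 4.12, 2.48 and 3.9 CPM in controls, 2.06, 1.69 and 4.58 with pMC and 4.67, 5.41 and 4.57 with IFN-alpha-pMC, above controls and overlapping pMC. Postn encodes periostin, which helps assemble collagen, and read 53.7, 12.7 and 58.8 CPM in controls, 20, 14.4 and 34 with pMC and 56.5, 63.7 and 81.4 with IFN-alpha-pMC on the right, above pMC only, by 1.56 ± 0.48 (adjusted p = 0.0495). Left tumours held Postn at 47.1, 20.7 and 29.3 CPM in controls, 19.5, 17.4 and 43 with pMC and 38.8, 50.6 and 49.9 with IFN-alpha-pMC, with overlap. Fn1, the fibronectin on which cells lay other matrix, ranged from 18.8 to 124 CPM and overlapped on both sides, with 0.28 ± 0.49 (adjusted p = 0.801) against right control. The calls of Thbs2 and Postn were lost without any one of the right libraries compared except pMC 3, up to an adjusted p of 0.196 and 0.201.

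None of the 4 elastic fibre genes was called in any comparison with all libraries. Fbn1, fibrillin-1, changed by 1.36 ± 0.45 (adjusted p = 0.0724) and Fbln2, a fibulin, by 1.49 ± 0.47 (adjusted p = 0.0537) against right pMC, both above all pMC libraries. DESeq2 called both against right pMC, at adjusted p of 0.0375 and 0.0223. Eln, elastin, was at 0.419 to 3.52 CPM over all libraries, with -1.16 ± 0.58 (adjusted p = 0.186) against left pMC, where IFN-alpha-pMC libraries were lowest. Fbln1 changed by -0.25 ± 0.20 (adjusted p = 0.511) against right control. Eln and Fbln1 fell against right control without the 3 libraries that stand apart, by -1.80 ± 0.68 and -0.46 ± 0.15.

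The proteoglycans hold the member with the largest change on the right, Podnl1. Of 7 members 2 rose against right control, 4 against right pMC, 2 against left control and 1 against left pMC. Dcn encodes decorin, which coats collagen fibrils. It read 15.5, 4.62 and 18.7 CPM in controls, 4.31, 3.98 and 9.21 with pMC and 34.3, 41.2 and 41 with IFN-alpha-pMC on the right, with every IFN-alpha-pMC library above every other. The rise was 1.59 ± 0.39 (adjusted p = 0.0134) against control and 2.74 ± 0.41 (adjusted p = 0.000275) against pMC, and the adjusted p stayed at or under 0.0409 and 0.00355 without any single library. In left tumours Dcn read 10.3, 7.11 and 6.69 CPM in controls, 5.8, 7.28 and 9.98 with pMC and 20, 24.3 and 25 with IFN-alpha-pMC, without overlap, a rise of 1.52 ± 0.40 (adjusted p = 0.0397) against control and 1.59 ± 0.40 (adjusted p = 0.0396) against pMC. It was the only member called in all 4 of these comparisons, which share their IFN-alpha-pMC libraries on each side.

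Podnl1 encodes podocan-like 1, a small leucine-rich proteoglycan. It was the member with the lowest level in controls and the highest fold change of the list on the right. It read 0.229, 0.0872 and 0.438 CPM in controls, 0.332, 0.0959 and 0.0535 with pMC and 1.58, 1.92 and 1.9 with IFN-alpha-pMC on the right, where every IFN-alpha-pMC library was above every other. These rest on 114 counts summed over the 3 right IFN-alpha-pMC libraries, 14 over controls and 9 over pMC. Podnl1 rose by 2.89 ± 0.50 (adjusted p = 0.000889) against control and 3.46 ± 0.54 (adjusted p = 0.000342) against pMC, with adjusted p at or under 0.00917 and 0.00457 without any single library. Left tumours held Podnl1 at 0.113, 0.336 and 0.335 CPM in controls, 0.387, 0.502 and 0.305 with pMC and 0.306, 0.197 and 0.163 with IFN-alpha-pMC, overlapping, with 11 counts in IFN-alpha-pMC, 13 in controls and 24 in pMC. Changes there were -0.26 ± 0.64 (adjusted p = 0.776) against control and -0.85 ± 0.59 (adjusted p = 0.334) against pMC.

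Vcan, Bgn and Lum were called in 1 comparison each. Vcan encodes versican, a large chondroitin sulphate proteoglycan of loose matrix, and read 3.61, 2.01 and 5.19 CPM in controls, 1.22, 0.528 and 2.94 with pMC and 5.49, 6.4 and 8.81 with IFN-alpha-pMC on the right. It was above both other groups there, by 2.15 ± 0.52 (adjusted p = 0.0119) against pMC and 0.95 ± 0.49 (adjusted p = 0.256) against control. In left tumours Vcan read 4.12, 1.68 and 2.12 CPM in controls, 1.85, 1.57 and 4.14 with pMC and 3.98, 3.93 and 4.02 with IFN-alpha-pMC, with overlap. Bgn encodes biglycan, a relative of decorin, and read 82.9, 31 and 46.9 CPM in controls, 28.3, 25.2 and 41.5 with pMC and 64.6, 71.5 and 141 with IFN-alpha-pMC on the right, above pMC only, by 1.54 ± 0.36 (adjusted p = 0.00991). Left tumours held Bgn at 58.1, 29.4 and 43.4 CPM in controls, 27.8, 33.9 and 47.6 with pMC and 56.1, 57.4 and 62.6 with IFN-alpha-pMC, above pMC and overlapping controls. Lum encodes lumican, which keeps fibrils thin, and read 3.25, 1.13 and 5.75 CPM in controls, 1.49, 1.1 and 3.21 with pMC and 6.61, 5.51 and 5.09 with IFN-alpha-pMC on the right. It overlapped controls there, with 1.57 ± 0.51 (adjusted p = 0.0615) against pMC. On the left Lum read 2.82, 1.07 and 1.45 CPM in controls, 1.42, 1.32 and 3.09 with pMC and 6.51, 6.93 and 6.2 with IFN-alpha-pMC, without overlap, a rise of 1.86 ± 0.52 (adjusted p = 0.0447) against control. Fmod, fibromodulin, ranged from 0.0859 to 4.82 CPM, much of that within right IFN-alpha-pMC tumours (0.12 to 4.82), and Ogn, osteoglycin, ranged from 4.31 to 9.86 CPM. Both overlapped controls on each side. Without right pMC 1 or pMC 2 the calls of Vcan and Bgn were lost, up to an adjusted p of 0.0646 and 0.0616, and the left call of Lum was lost without any one library, up to 0.147.

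Against right pMC 3 of the 4 enzymes rose, and 1 of them, Loxl2, also rose against right control. Lox, Loxl1 and Loxl2 are lysyl oxidases, which oxidise lysines of collagen and elastin so that they can crosslink. Lox read 5.99, 0.829 and 12.2 CPM in controls, 1.71, 2.54 and 6.1 with pMC and 21.1, 26.6 and 25.3 with IFN-alpha-pMC on the right, with IFN-alpha-pMC above all others. Its rise was 2.82 ± 0.77 (adjusted p = 0.0253) against pMC, and the change against control was 1.96 ± 0.74 (adjusted p = 0.105). In left tumours Lox read 7.96, 1.01 and 3.23 CPM in controls, 1.55, 1.76 and 5.8 with pMC and 11.2, 9.19 and 13.9 with IFN-alpha-pMC, also above all others, with 1.48 ± 0.75 (adjusted p = 0.16) against control and 1.90 ± 0.76 (adjusted p = 0.115) against pMC. Loxl1 read 7.04, 0.916 and 4.81 CPM in controls, 1.77, 1.2 and 3.8 with pMC and 10.6, 9.22 and 13.3 with IFN-alpha-pMC on the right, above both groups, by 2.29 ± 0.59 (adjusted p = 0.0185) against pMC and 1.38 ± 0.57 (adjusted p = 0.142) against control. Left tumours held Loxl1 at 5.87, 2.42 and 2.68 CPM in controls, 1.8, 2.82 and 5.84 with pMC and 4.98, 4.82 and 6.58 with IFN-alpha-pMC, with overlap. Loxl2 read 11.4, 6.15 and 10.1 CPM in controls, 8.3, 6.48 and 10.3 with pMC and 19.5, 20.3 and 25.2 with IFN-alpha-pMC on the right, above both groups, and rose by 1.23 ± 0.35 (adjusted p = 0.0287) against control and 1.37 ± 0.35 (adjusted p = 0.0158) against pMC. On the left Loxl2 read 11.5, 6.71 and 7.47 CPM in controls, 6.19, 6.09 and 14.4 with pMC and 10.8, 14.3 and 21.3 with IFN-alpha-pMC, overlapping, with 0.85 ± 0.35 (adjusted p = 0.0991) against control. Pcolce changed by -0.03 ± 0.16 (adjusted p = 0.945) against right control. All 3 calls against right pMC were lost without pMC 1 or pMC 2, and that of Lox also without IFN-alpha-pMC 2, up to an adjusted p of 0.117 for Lox, 0.0985 for Loxl1 and 0.084 for Loxl2. Against right control the Loxl2 call was lost without control 1, control 2, IFN-alpha-pMC 2 or IFN-alpha-pMC 3, up to 0.146.

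Of the fibroblast surface proteins Pdgfra was called on the right and Fap on the left, and neither in the test between sides. Pdgfra, the alpha receptor for platelet-derived growth factor and a common marker of fibroblasts, read 1.92, 0.523 and 1.31 CPM in controls, 0.608, 0.432 and 0.589 with pMC and 3.58, 2.93 and 7.35 with IFN-alpha-pMC on the right, with IFN-alpha-pMC above all others. It rose by 1.89 ± 0.51 (adjusted p = 0.0219) against control and 3.09 ± 0.55 (adjusted p = 0.00119) against pMC. In left tumours Pdgfra read 1.64, 0.403 and 1 CPM in controls, 0.644, 0.251 and 1.05 with pMC and 1.45, 1.82 and 1.52 with IFN-alpha-pMC, above pMC and overlapping controls, with 0.64 ± 0.54 (adjusted p = 0.374) against control. Fap, a protease of activated fibroblasts, read 2.24, 0.523 and 2 CPM in controls, 0.996, 0.72 and 1.93 with pMC and 2.19, 2.33 and 1.46 with IFN-alpha-pMC on the right, overlapping, with 0.33 ± 0.46 (adjusted p = 0.747) against control. On the left Fap read 1.35, 0.671 and 0.558 CPM in controls, 1.03, 0.941 and 1.57 with pMC and 3.37, 2.95 and 2.45 with IFN-alpha-pMC, above all others, a rise of 1.74 ± 0.49 (adjusted p = 0.047) against control. Right against left, the IFN-alpha-pMC difference over control was 1.25 ± 0.74 (adjusted p = 0.743) for Pdgfra and -1.41 ± 0.68 (adjusted p = 0.743) for Fap. The Pdgfra call against right control was lost without control 2 or IFN-alpha-pMC 3, up to an adjusted p of 0.109, and its call against pMC was kept without any single library, at or under 0.0117. The left call of Fap was lost without any one library, up to 0.155.

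No matrix gene passed the test in pMC tumours. Against right controls no member was called by edgeR or DESeq2, where 0.0% of all genes were called higher and 0.0% lower, and 2 were lower at an unadjusted p under 0.05, Dcn by -1.15 ± 0.40 (adjusted p = 0.945) and Vcan by -1.20 ± 0.52 (adjusted p = 0.945). Of the 37 genes 36 had a negative fold change there, with a median of -0.71 beside -0.03 over all genes. Without the 3 libraries that stand apart Col4a1, Col4a2 and Col15a1 fell, by -0.63 ± 0.13, -0.67 ± 0.13 and -0.62 ± 0.19, where 19.5% of all genes were called higher and 14.2% lower. Against left controls edgeR, DESeq2 and the unadjusted p called no member, with a median of -0.06 and 0.0% of all genes called in either direction. Groups overlapped for every member on both sides except for Eln, whose left pMC libraries were above the left controls.

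Podnl1 was the member called between the sides of IFN-alpha-pMC mice. Right IFN-alpha-pMC tumours held more Podnl1 than left ones, by 3.03 ± 0.52 (adjusted p = 0.00479), the sole member called, where 2.49% of all genes were higher on the right and 0.0404% lower. Without the 3 libraries that stand apart Podnl1 was still higher, and Col4a1 was lower on the right by -0.54 ± 0.14. Right libraries lay above all left ones for Col3a1, Col5a2, Postn, Thbs2, Dcn, Bgn, Podnl1, Vcan, Lox, Loxl1 and Pdgfra, and below all left ones for Fap. Between right and left controls edgeR, DESeq2 and the unadjusted p called no member, and 0.0% of all genes were called. For right against left pMC tumours edgeR and DESeq2 called none, 0.0% of all genes were called, and 1 member, Podnl1, had an unadjusted p under 0.05, at -1.28 ± 0.60 (adjusted p = 0.95).

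Tested as a difference of differences, the IFN-alpha-pMC change over pMC was larger on the right than on the left for Podnl1, by 4.31 ± 0.80 (adjusted p = 0.0309), where 0.377% of all genes were called higher and 0.0135% lower. The difference was 1.15 ± 0.56 (adjusted p = 0.434) for Dcn and 1.66 ± 0.57 (adjusted p = 0.285) for Col6a1, so the larger number of calls on the right is not by itself a difference between sides. The Podnl1 call was lost in 10 of the 12 fits that each left out 1 library, up to an adjusted p of 0.122 without left pMC 2, and with a length and GC offset, at 0.0637. Over control the same difference was 3.14 ± 0.83 (adjusted p = 0.224) for Podnl1, and edgeR and DESeq2 called no member, with 1 at an unadjusted p under 0.05 and 0.0% of all genes called. For the pMC change over control, right minus left, edgeR, DESeq2 and the unadjusted p called no member, with 0.0% of all genes called.

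The other genes of the same pathways were tested in the same model, where 8.78%, 8.88%, 4.05% and 2.71% of all genes were called higher and 2.01%, 1.21%, 2.6% and 1.14% lower against right control, right pMC, left control and left pMC. Of 19 tested genes of collagen synthesis, Adamts14 and P4ha1 rose against right control, by 3.39 ± 0.49 (adjusted p = 0.00017) and 0.66 ± 0.16 (adjusted p = 0.0112). Adamts14 trims the amino ends of procollagen and P4ha1 hydroxylates collagen prolines. Against right pMC 2 of 19 rose, Adamts14 and its relative Adamts2, by 2.75 ± 0.47 and 1.44 ± 0.41. Against left control P4ha1 and P4ha2 rose, by 0.61 ± 0.16 and 1.15 ± 0.33. The group's median stayed between 0.01 and 0.16 in the 4 IFN-alpha-pMC comparisons. Of 9 tested collagen receptors 1 rose on the right, Lair1, an inhibitory collagen receptor of leukocytes, by 1.67 ± 0.48 against control and 1.72 ± 0.48 against pMC.

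The 17 basement-membrane partners tested, among them laminins and agrin, had medians of the same sign as the type IV chains. By edgeR none of the 17 was called on the right, 1 was lower against left control and 3 against left pMC. DESeq2 called 1 lower against right control, 1 against right pMC, 8 against left control and 3 against left pMC, beside 3.54%, 1.6%, 10.1% and 5.21% of all genes. At an unadjusted p under 0.05, 8 and 4 were lower against right control and right pMC and 9 in each left comparison. Their medians were -0.56 and -0.44 on the right and -0.65 and -0.62 on the left. The share of all genes at that unadjusted threshold is not given here. On the left Agrn, agrin of nerve-muscle junctions and vessels, fell against control by -1.14 ± 0.31 (adjusted p = 0.0446) and against pMC by -1.19 ± 0.31. Lama5 and Lamb2, laminin chains, fell against left pMC by -2.11 ± 0.57 and -1.11 ± 0.30. Of 10 other fibrillar and fibril-associated collagens tested, Col24a1 rose by 1.35 ± 0.42 and Col20a1 fell by 1.34 on the log2 scale (SE 0.41) against right pMC, and Col5a3 fell by 1.33 (SE 0.36) against left control. In each of the 4 comparisons 1 of these 10 was above 0, and the medians were -0.90, -0.97, -1.22 and -1.13 against right control, right pMC, left control and left pMC. The medians of the 5 fibrillar members were 0.72, 1.67, 0.33 and 0.42 in the same order, so the 10 lay on the side of the basement-membrane chains. DESeq2 called 1, 1, 3 and 3 of the 10 lower, and 5, 4, 6 and 4 were lower at an unadjusted p under 0.05. Again the share of all genes at the unadjusted threshold is not given here.

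Markers of other cells differed between the same groups. Skeletal muscle markers (24 genes) summed to 2827, 3576 and 5589 CPM in right IFN-alpha-pMC and 2000.5, 1680.2 and 1044 CPM in left IFN-alpha-pMC tumours. The sums were 1478, 91.8 and 330.3 in right controls, 185, 409 and 261 in right pMC, 550.2, 78.2 and 111 in left controls and 75.3, 231 and 183 in left pMC tumours. Every right IFN-alpha-pMC library thus held more muscle RNA than any control or pMC library. In control and IFN-alpha-pMC tumours of each side, the library with most muscle RNA of its group also held the most Col1a1, Col1a2 and Col3a1. In pMC tumours of each side, the library with most muscle RNA held the least of these genes. The relation was not tested. Of the muscle markers 23 were tested, and 5, 16, 5 and 5 rose against right control, right pMC, left control and left pMC. Tnnc2, a troponin of fast muscle, was at 0 in every group except right IFN-alpha-pMC. It does not stand for the list, as all other muscle markers had counts in every group. With a muscle score as a covariate 1 member was called against right control, Podnl1, and 2 against right pMC, Podnl1 and Dcn, where 5.69% and 4.84% of all genes were called higher. On the left that fit called none by edgeR (0.849% and 0.559% of all genes higher), with 7 and 8 members lower at an unadjusted p under 0.05. DESeq2 was not run with this covariate. The score largely follows treatment, so the fit cannot tell muscle RNA and treatment apart. Shares of all genes at the unadjusted p are not given here.

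**Figure D5:**
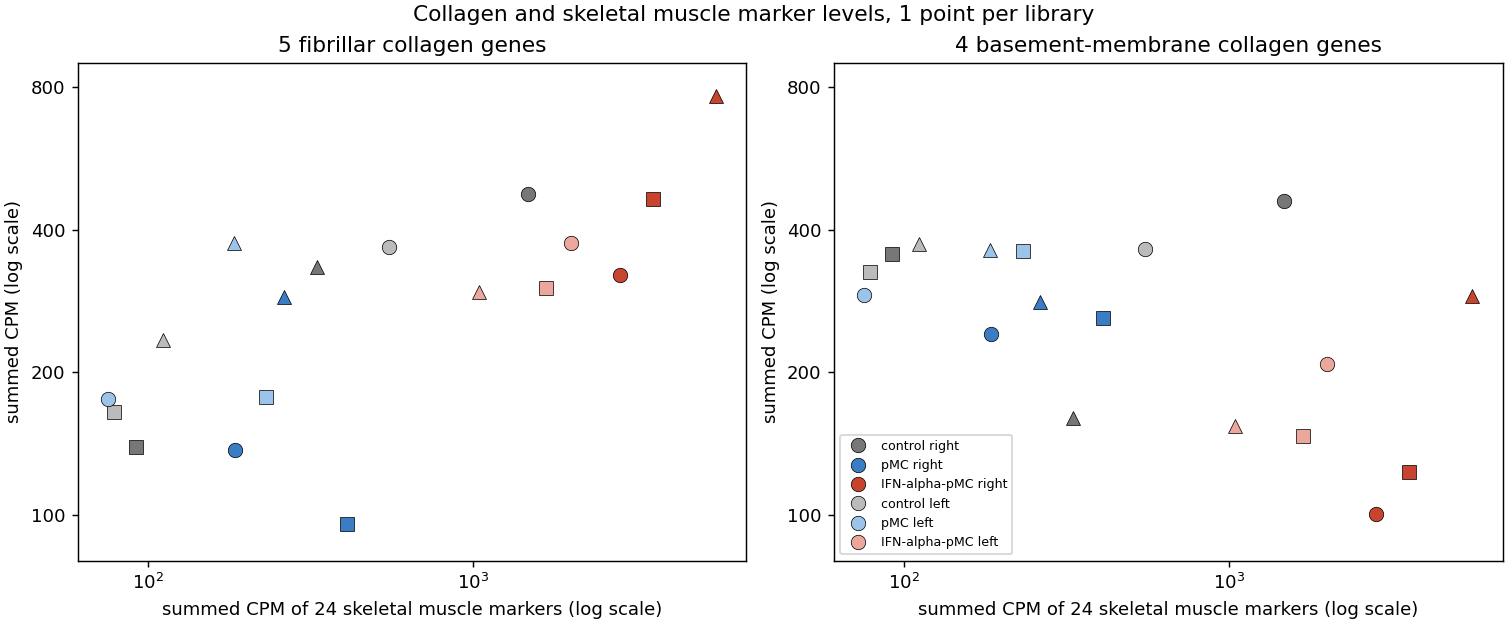
Summed CPM of 5 fibrillar collagens (left panel) and of basement-membrane collagens (right panel) against the summed CPM of 24 skeletal muscle markers, both axes on a log scale, 1 point per library. Muscle sums are 1044 to 5589 CPM in IFN-alpha-pMC libraries and 75.3 to 1478 CPM in the others.

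Tendon markers (8 genes) summed to 4.37 to 18.3 CPM in right IFN-alpha-pMC, 3.15 to 4.34 in right pMC and 1.83 to 13.8 in right control tumours, with Mkx and Kera at 0 in right control and pMC tumours and Tnmd at 0 in right pMC tumours. In left tumours the sums were 6.54 to 13.8 with IFN-alpha-pMC, 1.85 to 3.57 with pMC and 1.61 to 10.2 in controls. Of 19 other fibroblast markers tested, 3 rose against right control and 8 against right pMC, Efemp1 most in both, by 3.43 ± 0.70 and 4.95 ± 0.82, followed by Twist1 (2.31 ± 0.57) against control and Clec3b (3.0 ± 0.89) against pMC. Mean Efemp1 was 0.382 CPM in right control, 0.125 in right pMC and 3.96 in right IFN-alpha-pMC tumours. Twist1 went from 0.162 in right control to 0.84, and Clec3b from 0.108 in right pMC to 0.878. Except for Efemp1 in right control, these reference means lay within or under the 3-count floor of 0.128 to 0.209 CPM. The summed level of the other fibroblast markers was 476 to 818 CPM in right IFN-alpha-pMC against 504 to 977 in right control and 637 to 721 in right pMC tumours. On the left the sums were lower with IFN-alpha-pMC, at 487 to 605 CPM, than in controls (779 to 954) and pMC tumours (797 to 955), without overlap. Leukocyte markers (14 genes) summed to 751 to 1004 CPM in right IFN-alpha-pMC, 204 to 292 in right control and 208 to 281 in right pMC tumours, and 12 of 13 tested rose in both right comparisons. Adipocyte markers summed to 21.5 to 70.9 CPM over all libraries. The part of these cells in the matrix gene values was not tested.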

How the data were processed

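RNA of 18 tumour samples was sequenced from TruSeq stranded mRNA libraries, 3 for each of 6 groups taken from the sample titles. The deposited values are raw counts of reads per Ensembl gene ID, 1 file per library. Per the submitters' processing notes, genome build mm9 was used with HISAT2 2.1.0 and HTSeq 0.10.0, and the notes also name Trimmomatic 0.36, FastQC, bcl2fastq, CASAVA 1.8.2 and DESeq2 1.20.0. Neither the annotation release nor the counter's strand setting was given in the sources used here. Reads of overlapping genes on opposite strands may therefore not have been told apart. The 5 summary rows per file were left out, and 60.19 to 70.71% of the reads were assigned to a gene. No 2 libraries of a group agreed within sampling noise.

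The 37 genes and all gene lists were chosen with earlier results of these data known. Symbols matched 32897 of 37620 IDs (GENCODE M21), which also gave transcript lengths (longest transcript, GRCm38). The test was edgeR's two-sided quasi-likelihood F test (edgeR 4.0.16, R 4.3.3), with trimmed-mean scaling, filterByExpr at its defaults and 1 model of 6 group means (14849 genes, 12 residual degrees of freedom, common dispersion 0.0564). Benjamini-Hochberg adjustment ran over all 14849 genes, and an adjusted p under 0.05 was called. The SE is the log2 fold change divided by the square root of F. Floors of 3 counts cover counting error only, as the libraries carry no molecular identifiers to tell molecules from copies. The script was tested on simulated data with known fold changes.

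Values in every library were printed for 5 core collagen chains and for members past the threshold in at least 1 comparison, up to 16 ranked by smallest adjusted p, and up to 4 called genes of each other list were named. Alternatives were DESeq2 1.42.0, other size factors, no filter, the compared groups alone, a replicate block, a muscle score of 23 genes as a covariate, a length and GC offset, leaving out 3 libraries and leaving out each library. The test of the IFN-alpha-pMC change over pMC between sides was added after seeing the data. The 3 libraries left out together were also chosen after seeing the data. Promoters came from RefSeq, build GRCm38.p6.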

Additional observations from a re-analysis of the deposited data

Results flagged for a closer look

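The change of Podnl1 from pMC to IFN-alpha-pMC tumours differed between the sides by 4.31 ± 0.80 on the log2 scale (edgeR, adjusted p = 0.0309), being 3.46 on the right and -0.85 on the left. DESeq2 gave 4.37 (adjusted p = 0.00132). Podnl1 was higher in 3 of 3 right IFN-alpha-pMC libraries than in any other of the 18. The call rests on few counts, 114 over the right IFN-alpha-pMC libraries and 9 to 24 over each other group, and it was lost in 10 of 12 fits that left out 1 library. Groups of 3 are too small for a test of single outlying samples, so none was made.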

How the results depend on the processing

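Groups of 3, 14.35 to 23.43 counts a library in units of 1000000 and the 3 libraries that stand apart limit every count of called genes, and the cause of the changes below was not tested. Of 26 calls on single members, 26 remained with DESeq2, 26 without the filter on low counts, 25 with the replicate block, 23 with other size factors, 21 in the compared groups alone, 21 with a length and GC offset, 20 without the 3 libraries that stand apart and 5 with the muscle score, and 77 of 162 when single libraries were left out.

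For IFN-alpha-pMC against right control the 5 called members became 1 in the compared groups alone, 1 with the muscle score and 14 (7 higher, 7 lower) without the 3 libraries. Against right pMC 15 became 2 with the muscle score. For pMC against right control 0 became 3 without the 3 libraries. Against left control 3, all higher, became 5 with no filter (3 higher, 2 lower), 9 in the compared groups alone (5 higher, 4 lower, 36 members tested), 0 with the muscle score, 0 with the offset, 8 without the 3 libraries (5 higher, 3 lower) and 5 by DESeq2 (3 higher, 2 lower). Against left pMC 1, higher, became 2 (2 higher), 9 (7 higher, 2 lower), 0, 0, 7 (4 higher, 3 lower) and 3 (2 higher, 1 lower) under the same settings. Every lower call with no filter, in the compared groups alone or by DESeq2 is on a basement-membrane collagen. The medians of the 37 were -0.07, 0.53, -0.32 and -0.34 with the muscle score against right control, right pMC, left control and left pMC. Over all genes the compared groups alone called 7.25% higher and 14.8% lower against left control and 6.73% and 11.2% against left pMC. Between the sides of IFN-alpha-pMC mice 1 became 2 without the 3 libraries. The difference between sides went from 0 to 2 over control without the 3 libraries and from 1 to 0 over pMC with the offset. Leaving out 1 library gave 2 to 8 calls against right control, 3 to 19 against right pMC, 0 in each fit against left control and left pMC, 1 in each fit between sides, and 0 to 1 for the difference over pMC. Shares of all genes called in those fits are not given here.

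The fibrillar minus basement-membrane difference with Col4a1 and Col4a2 alone was -1.56 in right control, -2.14 in right pMC, 0.19 in right IFN-alpha-pMC, -2.00 in left control, -2.03 in left pMC and -0.53 in left IFN-alpha-pMC tumours, and with medians 1.47 and 0.80 in right and left IFN-alpha-pMC tumours. Leaving out 1 library gave -0.75 to 0.23, -1.11 to -0.51, 0.98 to 1.09, -0.92 to -0.48, -0.95 to -0.51 and 0.42 to 0.52 for these groups in that order. With the trend on length and GC removed, chosen after seeing the data, IFN-alpha-pMC libraries stood at 0.33 to 1.11.

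Signs turned for chains that were not called. Col1a1 against right control was -0.72 with the muscle score, -0.52 without the 3 libraries and -0.50 to 0.90 without single libraries (below 0 without right control 2 or right IFN-alpha-pMC 3). It was -0.20 against right pMC with the muscle score. Against left control it was 0.02 with the replicate block, 0.74 with the offset and -0.45 to 0.29 without single libraries. Against left pMC it was -1.33 with the muscle score, -0.30 without the 3 libraries and -0.30 to 0.51 without single libraries, and right against left it was -0.17 to 1.06 without single libraries. With the muscle score Col1a2 was -0.11, -0.60 and -0.61 against right control, left control and left pMC, and Col3a1 -0.28 and -0.39 against left control and left pMC. Right against left, Col4a1 was 0.00 with no filter and -0.71 to 0.27 without single libraries, and Col4a2 -0.78 to 0.23.

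The labels do not say whether right and left libraries of the same replicate number came from the same mouse. Deviations of same-numbered libraries over 5000 genes correlated at 0.72, -0.40 and -0.15 in controls, 0.06, -0.23 and 0.14 in pMC and 0.54, -0.52 and 0.73 in IFN-alpha-pMC mice. Such mixed values cannot show whether the samples are paired. The main tests between sides used no pairing. The replicate block gave 6 called members against right control, 19 against right pMC, 2 against left control, 2 against left pMC and 2 between sides. The share of all genes called with the replicate block is not given here, so these counts alone do not set the matrix genes apart from other genes.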
